A study of Mus musculus with 6 samples.

Results

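Mast cell-like cells were a rare population of the CD45+ cells recovered from subcutaneous pancreatic tumors. Of 104682 barcodes that passed the filters, 113 were selected as mast cells and basophils: 40 from PBS-treated, 43 from mono-IL10-treated and 30 from IL10/2-Trikine-treated mice. The filters required 1000 or more genes per barcode and no more than 10% of UMIs from mitochondrial genes, a UMI (unique molecular identifier) standing for 1 captured RNA molecule. Members were then chosen by measured marker counts: a barcode was selected when at least 2 of Cpa3, Gata2, Ms4a2 and Fcer1a had a UMI and their UMIs summed to at least 4. Barcodes with more than 3 UMIs of the macrophage genes C1qa, C1qb and C1qc, more than 3 of the epithelial keratins Krt8 and Krt18, or any UMI of Cd3e (T cells) or Ncr1 (NK cells) were left out. Of 201 marker-positive barcodes, 42 went over the C1q limit, 54 over the keratin limit, 8 carried Cd3e and 4 carried Ncr1, and some met more than 1 of these. The marker limit itself was rarely decisive: 1 selected cell had a marker sum of 4 or 5, and 0 barcodes that met every other condition had a sum of 3. The gene minimum weighed more, since 84 barcodes with at least 500 but fewer than 1000 genes met all other conditions. They were uneven by treatment: 22 with PBS, 16 with mono-IL10 and 46 with IL10/2-Trikine, beside the 40, 43 and 30 selected. The part of this minimum in the shares by treatment was not tested.

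The study asked how a tumor responds to a cytokine that engages the IL-10 receptor together with the IL-2 receptor beta chain, compared with IL-10 signaling alone. Mice bore tumors of 6694c2vTRP1, a derivative of a KPC pancreatic ductal adenocarcinoma line placed under the skin of C57BL/6 mice. The 3 groups received PBS, mono-IL10 (a monomeric IL-10; 26 μg per mouse) or IL10/2-Trikine (mono-IL10 extended to bind the IL-2 receptor beta chain, at a somewhat larger mass per mouse), in 2 injections that began on day 8, and all tumors were taken on day 14. CD45+ cells were enriched with beads, and the cells of 5 mice per group were marked with 5 hashtag antibodies, pooled and run as 1 library of 5' single-cell RNA sequencing. The study's methods name male and female mice for this tumor model. The sex of single mice and the age of the mice in these libraries were not given in the sources used here. The mouse was the unit of every test, but each treatment was measured in a single library, so treatment and library cannot be told apart. The enrichment left tumor epithelial cells in the libraries, and all shares below are shares of recovered cells rather than of tissue.

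Mast cells are tissue-resident granulocytes that store histamine, heparin and serine proteases in granules and release them when IgE bound to the receptor FcεRI is crosslinked. Mouse mast cells of connective tissue express the chymase Mcpt4, the elastase-like chymase Cma1 (mMCP-5), the tryptase Tpsb2 (mMCP-6) and the carboxypeptidase Cpa3, whereas mucosal mast cells are known for Mcpt1 and Mcpt2, whose transcripts IL-10 raises in cultured mouse mast cells. Basophils are short-lived blood granulocytes that share FcεRI and Hdc with mast cells but are marked in mice by Mcpt8 and Prss34 and carry little or no Kit.

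The selected cells were shallow. Their median UMI count in the PBS, mono-IL10 and IL10/2-Trikine libraries was 3114, 6597 and 2796, against 9474, 11644 and 6399 in all barcodes that passed the filters. Macrophage-like cells had medians of 5984, 6922 and 3294.5, and NK-like cells of 4169, 5754 and 3024. With mono-IL10 the selected cells were thus deeper than NK-like cells. Summed over the selected cells there were 173420, 330227 and 95731 UMIs, so that 1 UMI corresponded to 5.77, 3.03 and 10.4 CPM (UMIs of a gene per 1000000 UMIs of the cells summed). A gene with 0 UMIs could therefore have had up to 17.3, 9.08 and 31.3 CPM (3 counts). Levels are CPM of UMIs summed over cells. A 5' library yields 1 tag per captured molecule, so transcript length did not enter these levels. Intervals and limits cover counting error only.

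Hashtags placed 55 of the 113 cells in a mouse. A further 53 had no hashtag above background and 5 carried more than 1. In the order PBS, mono-IL10 and IL10/2-Trikine, the share without a hashtag was 60%, 39.5% and 40%, against 9.31%, 7.60% and 16.4% of all non-epithelial cells. Among macrophage-like cells it was between 1.03% and 4.95%, and among NK-like cells it was 25.2%, 20.8% and 36.5%. Descriptions of cells therefore used all 113, whereas comparisons between treatments rested on the 55 assigned cells. The libraries shared 408 to 700 cell barcodes pairwise. Of the selected mono-IL10 cells, 1 had a barcode that was also present in the PBS library and 3 had one also present in the IL10/2-Trikine library, and 0 barcodes were selected in 2 libraries. Of the selected cells, 1 was present in the authors' table of T and NK cells.

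The genes used for selection are given as a description. Cpa3 stood at 16965, 13579 and 11219 CPM in the 3 libraries in the order above, and it had a UMI in 98.2% of the 113 cells. Fcer1a, the IgE-binding chain of FcεRI, stood at 1430, 2144 and 1274 CPM. Gata2, a transcription factor required for mast cells and basophils, had 346, 357 and 313 CPM. Ms4a2, the beta chain of FcεRI, had 294, 273 and 157 CPM. Macrophage-like cells of the same libraries (25686 cells, with at least 10 C1q UMIs) held 0.129 CPM of Cpa3 and 0.0369 CPM of Fcer1a.

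Genes that took no part in the selection gave the same picture. Of the 113 cells, 111 carried Mcpt4, Cma1 and Tpsb2 together, and 104 carried Kit, the stem cell factor receptor on which mast cells depend. Kit stood at 1032, 793 and 689 CPM in the 3 libraries, against 12.6 CPM in macrophage-like and 73.8 CPM in 620 NK-like cells. Mrgprb2, a receptor through which connective tissue mast cells respond to basic peptides, stood at 179, 148 and 157 CPM. Of the 2 genes named above as basophil marks, Mcpt8 had 53 UMIs in all and Prss34 was found in 7 cells. The wider list of 21 basophil identity genes does not separate both cell types: 1 gene, Ccr2, had 0 UMIs, and the list summed to 10979, 12573 and 7145 CPM by library, led by Fcer1a, Hdc, Ccl4 and Il13, which mast cells express too. Cd200r3, a receptor of both cell types, was found in 63.7% of cells. On these markers 111 cells were mast cell-like. The other 2 cells lacked these proteases, carried Mcpt8 and Hdc with at most 2 Kit UMIs, and were left without a name; they are described with the Mcpt8 counts. The name mast cell-like is used below for all 113 selected cells, these 2 included.

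The promoters of 4 of the most abundant granule protease genes are shown because Gata2 was among the selection genes and GATA factors are known regulators of mast cell proteases. Each sequence is the 250 bases before the start that the RefSeq promoter table uses (GRCm38.p6, a build older than that of the count files), written 5' to 3' on the gene's strand. Capitals mark the letters GATAA or, on the opposite strand, TTATC.
Mcpt1, chr14:56017714-56017963, plus strand: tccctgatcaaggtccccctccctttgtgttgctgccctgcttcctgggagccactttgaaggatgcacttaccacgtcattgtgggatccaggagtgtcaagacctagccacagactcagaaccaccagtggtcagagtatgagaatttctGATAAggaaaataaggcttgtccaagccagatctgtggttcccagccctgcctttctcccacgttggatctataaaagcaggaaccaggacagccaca
Mcpt4, chr14:56062311-56062560, minus strand: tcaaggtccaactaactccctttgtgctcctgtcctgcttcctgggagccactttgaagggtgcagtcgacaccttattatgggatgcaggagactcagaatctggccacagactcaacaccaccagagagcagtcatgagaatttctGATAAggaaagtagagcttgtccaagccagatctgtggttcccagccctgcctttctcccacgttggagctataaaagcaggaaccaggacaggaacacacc
Cma1, chr14:55944676-55944925, minus strand: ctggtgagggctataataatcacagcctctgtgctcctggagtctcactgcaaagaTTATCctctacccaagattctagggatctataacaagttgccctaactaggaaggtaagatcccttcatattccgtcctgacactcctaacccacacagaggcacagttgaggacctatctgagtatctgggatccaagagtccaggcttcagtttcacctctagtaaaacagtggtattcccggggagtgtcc
Cpa3, chr3:20242182-20242431, minus strand: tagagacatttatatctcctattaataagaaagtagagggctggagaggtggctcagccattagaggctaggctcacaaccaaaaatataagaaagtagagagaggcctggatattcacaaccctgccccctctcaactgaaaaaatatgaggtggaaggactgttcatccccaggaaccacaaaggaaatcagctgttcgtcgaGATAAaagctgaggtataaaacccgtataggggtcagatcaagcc
Each of the 4 windows held 1 match to GATAA, with its first base 98 bases before the start in Mcpt1, 102 in Mcpt4, 194 in Cma1 (opposite strand) and 45 in Cpa3. The same letters occurred on either strand in 22.6% of 32851 promoter windows of this length. The Mcpt1 and Mcpt4 windows were identical at 81.9% of aligned positions, with a longest shared run of 53 bases, whereas Cma1 and Cpa3 were identical to them and to each other at 47.3% to 51.8%. Mcpt1, Mcpt4 and Cpa3 also held TATAAA 28, 32 and 31 bases before the start, letters found on the gene strand in 7.59% of all windows, and Cma1 did not. A match to such letters is a description of the window and not a binding site.

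The granule proteases dominated the RNA of these cells. Mcpt2 was the most abundant, with 56435 CPM over all 113 cells, followed by Mcpt1 (37452 CPM), Mcpt4 (25994 CPM), Tpsb2 (18372 CPM), Cma1 (15092 CPM) and Cpa3 (14181 CPM). Together these 6 transcripts took a median of 13.8% of a cell's UMIs in PBS, 20% with mono-IL10 and 11.4% with IL10/2-Trikine, with a maximum of 30.4% in a single cell. Tpsab1, the gene of the tryptase mMCP-7, reached 2523 CPM, and Tpsg1, a membrane-anchored tryptase, 214 CPM. In macrophage-like cells Mcpt2 stood at 1.30 CPM and Mcpt4 at 0.283 CPM.

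Most of the chymase transcripts came from a single gene cluster on chromosome 14. In the GENCODE annotation (GRCm38) the 16 genes looked up here lie from Cma1 to Gzmb, and other genes of the stretch were not counted. Levels differed by orders of magnitude between neighbors on this list. The 4 most abundant of them, Cma1, Mcpt4, Mcpt1 and Mcpt2, stood at 15092 to 56435 CPM. Mcpt-ps1 and Cma2, next to Cma1, had 677 and 527 CPM, and Mcpt9, between Mcpt1 and Mcpt2, had 260 CPM. Mcpt8 and Ctsg (cathepsin G), on the far side of Mcpt4, had 88.4 and 60.1 CPM. At the granzyme end Gzmg, Gzmn and Gzmf had 0 UMIs, Gzmc had 130 CPM and Gzmb 1029 CPM. Counts of Cma2 and Mcpt9 are uncertain, because 28.2% of the 90-base stretches of the Cma2 transcript were also found in another gene of the family, mostly Mcpt9, and 12.1% of those of Mcpt9. For Mcpt1, Mcpt2, Cma1, Tpsb2 and Cpa3 this share was 0%, and for Mcpt4 1.08%.

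Mucosal-type and connective tissue-type proteases were found in the same cells. At least 1% of the UMIs belonged to Mcpt1 and Mcpt2 and at least 1% to Mcpt4, Cma1 and Tpsb2 in 98 of the 113 cells. Another 13 cells reached 1% for the connective tissue set only, 0 for the mucosal set only and 2 for neither. The share taken by Mcpt1 and Mcpt2 ran from 0% to 24.2% of UMIs, with medians of 5.76%, 11.6% and 6.02% by library, so it spread widely within each. The connective tissue set had medians of 5.51%, 6.16% and 4.33%. Mcpt1 had no UMI in 12 of 40 PBS, 4 of 43 mono-IL10 and 7 of 30 IL10/2-Trikine cells. Across the 113 cells, Spearman's rho of the shares was 0.743 for Mcpt4 with Cma1 and 0.595 for Mcpt1 with Mcpt2, but -0.0529 for Mcpt1 with Mcpt4. Mcpt1 and Mrgprb1, a receptor gene of the same family as Mrgprb2, had a rho of -0.502, with -0.398, -0.593 and -0.492 in the single libraries. These correlations are across cells that share library and depth, and shares of 1 total are not independent of each other.

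**Figure D1:**
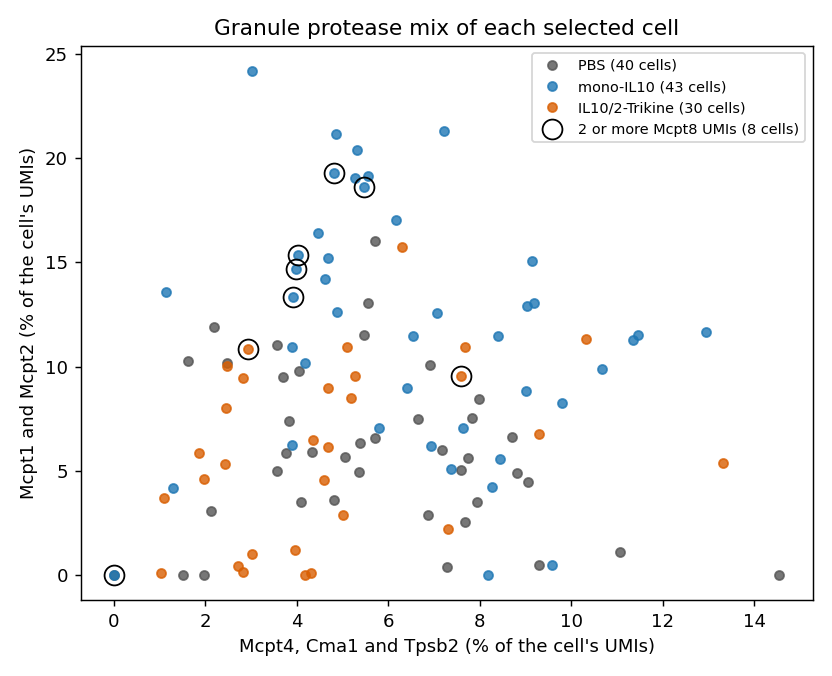
Share of each cell's UMIs from Mcpt4, Cma1 and Tpsb2 (horizontal axis, %) against the share from Mcpt1 and Mcpt2 (vertical axis, %), 1 point per selected cell, colored by library, with black rings around the 8 cells that had 2 or more Mcpt8 UMIs. Most points lie away from both axes, the highest mucosal shares, up to 24.2%, are in mono-IL10 cells, 7 of the 8 ringed cells lie among the others, and the 2 cells without these proteases lie at 0 on both axes.

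Most cells with Mcpt8 also carried the mast cell proteases. At least 2 Mcpt8 UMIs were present in 0 of 40 PBS cells (exact 95% interval up to 8.81%; 3 counts would be 7.50%), in 6 of 43 mono-IL10 cells (13.95%, 5.30% to 27.9%) and in 2 of 30 IL10/2-Trikine cells (6.67%, 0.818% to 22.1%). In macrophage-like cells the share was between 0% and 0.00961%. The 8 cells had 2 to 18 Mcpt8 UMIs. Of these, 7 also carried 28 to 126 Cpa3 UMIs and 69 to 497 Mcpt4 UMIs, and 8 of 8 had Kit. The depth differed: Mcpt8+ cells had a median of 9812 UMIs and the others 3881. Of the selected cells, 26 PBS, 39 mono-IL10 and 11 IL10/2-Trikine cells had at least 3000 UMIs. After these were thinned to 3000 UMIs, at least 1 Mcpt8 UMI was found in 0 (a count of 0 allows up to 11.5%), 8 and 1 of them, against 1, 11 and 1 of the same cells before thinning. Among all cells that met the rule after thinning, it was found in 0 of 29 PBS, 8 of 41 mono-IL10 (19.5%) and 4 of 16 IL10/2-Trikine cells (25%). Of those, 4, 3 and 7 had not been selected before.

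Between the 8 Mcpt8+ and the 105 other cells some genes differed in level, given here without a test because Mcpt8 made the split. The connective tissue receptor Mrgprb1 had 0 UMIs in the Mcpt8+ cells and 767 CPM in the rest, where 66.7% of cells carried it. Camk2d (0 against 309 CPM) and Olr1 (0 against 294 CPM) showed the same direction. Mcpt1 stood at 66326 CPM in Mcpt8+ against 32883 CPM in the other cells, and Gzmb at 2198 against 844 CPM. Ccl7, a monocyte attractant, stood at 208 against 9144 CPM. Most of the Mcpt8+ UMIs, 75421 of 81884, came from the mono-IL10 library, in which Mcpt1 and Gzmb were high in the other cells too. Within that library Mcpt1 stood at 67209 against 48504 CPM, Gzmb at 2201 against 1330 CPM, Ccl7 at 159 against 10898 CPM and Mrgprb1 at 0 against 648 CPM. Most genes highest in the Mcpt8+ cells by ratio came from single cells: Plet1 (318 against 5.80 CPM), Tbc1d8 (183 against 1.93 CPM), Mpeg1, Timd4 and the MHC class II gene H2-Eb1 (1466 against 34.8 CPM) were each found in 1 of the 8 cells. The collagen genes Col1a1, Col1a2 and Col3a1, at 1082 to 1422 CPM in the other cells and 0 in Mcpt8+ cells, were carried by at most 7.62% of them.

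The 2 cells without Cpa3 stood apart. A PBS cell had 16642 UMIs, 0 UMIs of Cpa3, Mcpt4, Cma1, Tpsb2 and Kit, 1 of Mcpt8, 15 of Hdc and 22 of Ifitm1. A mono-IL10 cell had 15110 UMIs, 0 UMIs of the same 4 proteases, 3 of Mcpt8, 2 of Kit, 40 of Hdc, and 75 of Ifitm1. Neither had a UMI of Mcpt1 or Mcpt2. Hdc and Ifitm1 were not particular to these 2 cells. Mcpt8+ cells with Cpa3 held 1 to 15 UMIs of Hdc and 0 to 53 of Ifitm1. The PBS cell was assigned to PBS mouse 3, whose summed fibroblast markers reached 42189 CPM while the lowest PBS mouse was at 0. This cell gave 16642 of the 39560 UMIs of PBS mouse 3, so it lowered the mast cell protease levels of that mouse. Without it Cma1 stood at 24740 instead of 14333 CPM, Mcpt4 at 33380 instead of 19338 CPM and Mcpt2 at 29322 instead of 16987 CPM.

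Genes for granule storage and mediator synthesis were found in all 3 libraries. Srgn, the proteoglycan core that holds proteases in granules, stood at 5813, 7328 and 4074 CPM in the PBS, mono-IL10 and IL10/2-Trikine libraries. Hdc, which makes histamine, had 1540, 1538 and 1170 CPM, and Tph1, which starts serotonin synthesis, 807, 1596 and 700 CPM. Slc18a2, which loads amines into granules, stood at 317, 215 and 178 CPM. For eicosanoids, Alox5ap (984 CPM over all cells) and Alox5 (339 CPM) of the leukotriene pathway were above Hpgds (184 CPM), which makes prostaglandin D2, and Ptgs2 (60.1 CPM). Of the 18 genes listed for amine, heparin and eicosanoid synthesis, 17 had at least 1 UMI.

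All 20 genes listed for the IgE receptor pathway had UMIs, led by Fcer1g, the shared signaling chain (3207 CPM), Fcer1a (1799 CPM), the kinase gene Prkcb (811 CPM) and the adapter Gab2 (347 CPM). The adapter Lat, which T cells use too, was found in 64.6% of cells at 265 CPM, while Cd3d had 1 UMI. Inhibitory receptors were led by Lilrb4b (667 CPM), Cd200r4 (150 CPM), Cd33 (107 CPM) and Lilrb4a (90.1 CPM), and 13 of 15 listed genes had at least 1 UMI.

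Cytokine and chemokine RNA was found in many cells. The 26 listed genes summed to 22016, 19677 and 15836 CPM by library, close to the 19563, 18775 and 16121 CPM of macrophage-like cells. Ccl7 was highest at 7923 CPM and was carried by 81.4% of cells, against 657 CPM in macrophage-like cells. Ccl2, a further monocyte attractant, had 3005 CPM, Ccl1, a ligand of CCR8, 2042 CPM, and Ccl4 1852 CPM. Il13 was found in 66 cells (929 CPM), Il4 in 53 (491 CPM) and Il6 in 49 (676 CPM), whereas macrophage-like cells had 0.314 CPM of Il13 and 0.160 CPM of Il4. Il5 and Il9 had 0 UMIs in 599378, which allows up to 5.01 CPM. Il10 had 1 UMI, against 50.5 CPM in macrophage-like cells.

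Il4 and Il13, the type 2 cytokines, varied widely between mice of a group. Il4 stood at 85.2, 126 and 2381 CPM in the 3 PBS mice with at least 3 cells. The 5 mono-IL10 mice had a lowest value of 21.5 CPM and a highest of 587 CPM, and the IL10/2-Trikine mice had 77.1, 111 and 128 CPM. Il13 ran from 469 to 1011 CPM in PBS, from 42.9 to 3249 CPM in mono-IL10 and from 574 to 1220 CPM in IL10/2-Trikine, so the groups overlapped. Ccl1 was lower in IL10/2-Trikine, at 77.1, 444 and 191 CPM, than in PBS, at 4517, 5713 and 2002 CPM, without overlap, as for 7.27% of the 440 genes tested. The mono-IL10 mice spanned both, from 253 to 6841 CPM. The Ccl1 difference between IL10/2-Trikine and PBS was -4.36 on the log2 scale (SE 1.27) and did not pass the test (edgeR, adjusted p = 0.259). DESeq2 on the same mice called it lower against PBS (-4.30, SE 1.06, adjusted p = 0.0118) and against mono-IL10 (-3.31, SE 0.978, adjusted p = 0.0271). With mice called by the highest hashtag, the edgeR difference of Ccl1 from mono-IL10 changed sign, as given in the last section.

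Of the receptors for both cytokines, the IL-10 receptor was found at a low level and the IL-2 receptor beta chain was nearly absent. Il10ra had 38 UMIs in all (98.0, 42.4 and 73.1 CPM by library), and Il10rb had 12. Il2rb had 6 UMIs, all in IL10/2-Trikine cells (62.7 CPM) and in 1.77% of the 113 cells, against 1094 CPM in NK-like cells. Il2ra, the alpha chain, had 0 UMIs, and Il2rg, the shared gamma chain, 59 UMIs (98.4 CPM). Levels of other receptors were higher: Il1rl1, the receptor of IL-33, stood at 1741, 1705 and 1786 CPM, and Csf2rb2 and Csf2rb, the beta chains for IL-3, IL-5 and GM-CSF, at 672 and 427 CPM over all cells.

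In the 5 mice with at least 5 mast cell-like cells, 13 receptor, kinase, STAT and feedback genes were compared with macrophage-like and NK-like cells of the same mouse. None of the 26 tests could pass, since the smallest p of an exact sign-flip permutation test with 5 mice is 0.0625. Il2rb had 0 UMIs in all 5 mast cell-like sums, so no size is given for its difference from NK-like cells, and Cish was higher than in macrophage-like cells in 5 of 5, by 2.70 on the log2(CPM + 1) scale (SD 0.702). In all 11 mice with at least 3 mast cell-like cells, a setting added after the data had been seen, the same test was run on all genes with a UMI in either population, and p was adjusted over all of them. On the log2 scale 12 of the 13 genes passed against macrophage-like cells, where 49.6% of 24354 genes did, and 12 against NK-like cells, where 24.6% of 15432 genes did. Many of these sums held 0 UMIs of a gene. With CPM not logged, 10 passed against macrophage-like cells (35.6% of all genes) and 10 against NK-like cells (15.4%). Most of the genes that passed were lower in mast cell-like cells: on the CPM scale 33.9% of all genes were lower and 1.69% higher than in macrophage-like cells, and 12.6% lower and 2.8% higher than in NK-like cells.

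On the CPM scale, Stat3, the main transcription factor downstream of IL-10, was lower than in macrophage-like cells in 11 of 11 mice, by a mean of -219 CPM (SD 121; exact sign-flip permutation p = 0.000977, the smallest possible, adjusted p = 0.00706 over all genes). Socs3, a feedback gene of STAT3, was lower in 11 of 11 by -329 CPM (SD 83.1, same p). Il10ra was lower in 10 of 11 by -78.6 CPM (SD 68.3, exact permutation p = 0.00781, adjusted p = 0.0299). Against NK-like cells, Il10ra differed by 16.5 CPM (SD 61.5, exact permutation p = 0.469), which the test did not resolve, and Il2rb was lower in 11 of 11 by -1115 CPM (SD 174, p = 0.000977 by exact permutation). Cish, a feedback gene of STAT5, was the exception. It was higher in 11 of 11 mice than in macrophage-like cells, by 254 CPM (SD 195, exact permutation p = 0.000977, adjusted p = 0.00706), and higher in 9 of 11 than in NK-like cells, by 223 CPM (SD 200, exact permutation p = 0.00391, adjusted p = 0.0175). These mice come from the 3 treatments together.

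**Figure D2:**
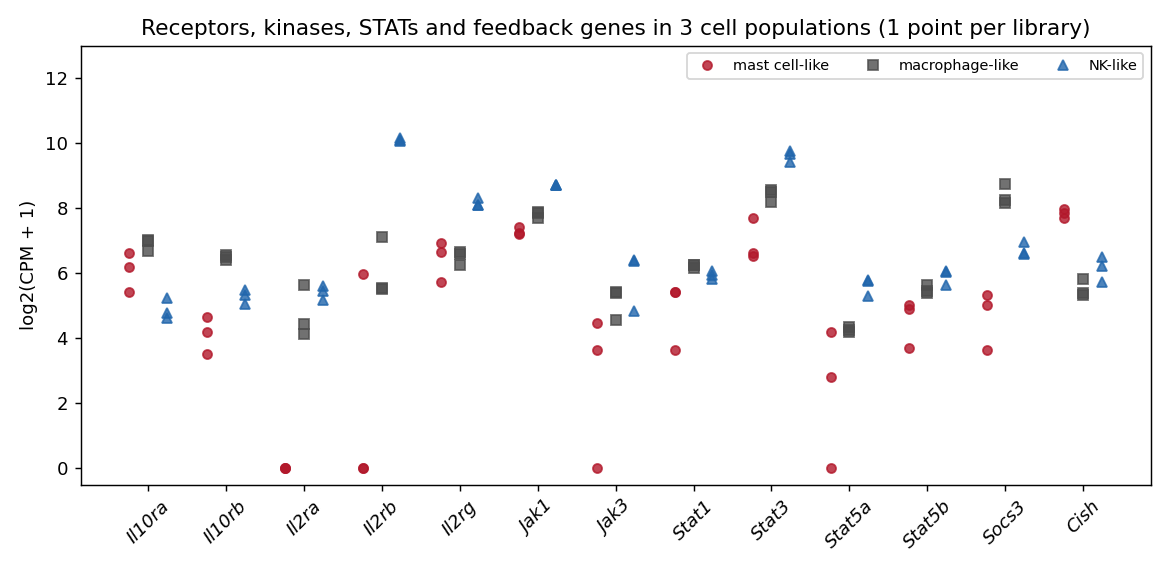
Level of 13 receptor, kinase, STAT and feedback genes as log2(CPM + 1) of UMIs summed per library, in mast cell-like (circles), macrophage-like (squares) and NK-like cells (triangles), 1 point per library. Il2ra is at 0 in all 3 mast cell-like sums, Il2rb is above 0 only in the IL10/2-Trikine one, and Cish is the gene at which mast cell-like cells lie above the other 2 populations.

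The share of mast cell-like cells did not differ between treatments by more than the spread between mice. Among non-epithelial cells they made up 0%, 0.202%, 0.183%, 0% and 0.150% in the 5 PBS mice, 0.111%, 0.143%, 0.215%, 0.296% and 0.323% in the mono-IL10 mice, and 0.0195%, 0.183%, 0.0914%, 0.204% and 0.209% in the IL10/2-Trikine mice. The groups overlapped in every pair. Means were 0.107% ± 0.0993 (SD, n = 5), 0.218% ± 0.0926 and 0.141% ± 0.0829, from 16, 25 and 14 assigned cells. Over all selected cells of a library, with or without a hashtag, the share was 0.205% (exact 95% interval 0.146% to 0.279%) in PBS, 0.302% (0.219% to 0.407%) in mono-IL10 and 0.174% (0.117% to 0.248%) in IL10/2-Trikine, so IL10/2-Trikine then lay below PBS. These are 1 value per library, without a test. The difference was 0.111 percentage points for mono-IL10 minus PBS (exact two-sided permutation p = 0.119, adjusted p = 0.310), 0.0343 for IL10/2-Trikine minus PBS (exact permutation p = 0.556, adjusted p = 0.556) and -0.0766 for IL10/2-Trikine minus mono-IL10 (exact permutation p = 0.206, adjusted p = 0.310).

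The outcome depended on how depth was handled. With each cell thinned to 3000 UMIs and the rule applied again, the mean share was 0.230% with mono-IL10, 0.078% with PBS and 0.0942% with IL10/2-Trikine, and mono-IL10 differed from both (0.153 percentage points above PBS and -0.136 for IL10/2-Trikine minus mono-IL10, exact permutation p = 0.0159, adjusted p = 0.0238 for each). Thinning also changed which cells were counted. Of the 29 PBS, 41 mono-IL10 and 16 IL10/2-Trikine cells that then met the rule, 4, 3 and 7 had not been selected before, and 14, 4 and 19 selected cells were too shallow to enter. With selected cells of at least 3000 UMIs and no thinning, a setting added after the data had been seen, the mean was 0.220% for mono-IL10, 0.116% for IL10/2-Trikine and 0.08% for PBS, and no pair passed. The difference was then 0.140 percentage points for mono-IL10 minus PBS (exact permutation p = 0.0397, adjusted p = 0.119) and -0.105 for IL10/2-Trikine minus mono-IL10 (exact permutation p = 0.0794, adjusted p = 0.119). With all barcodes that passed the filters as the denominator, tumor epithelial cells included, IL10/2-Trikine minus mono-IL10 was -0.0867 percentage points (exact permutation p = 0.0159, adjusted p = 0.0476) and IL10/2-Trikine minus PBS -0.0152 (exact permutation p = 0.635). Many cells were lost to the hashtag call, most in PBS, and the part of this loss in the shares was not tested. Mice without an assigned cell, such as PBS mice 1 and 4, may still have contributed unassigned cells.

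**Figure D3:**
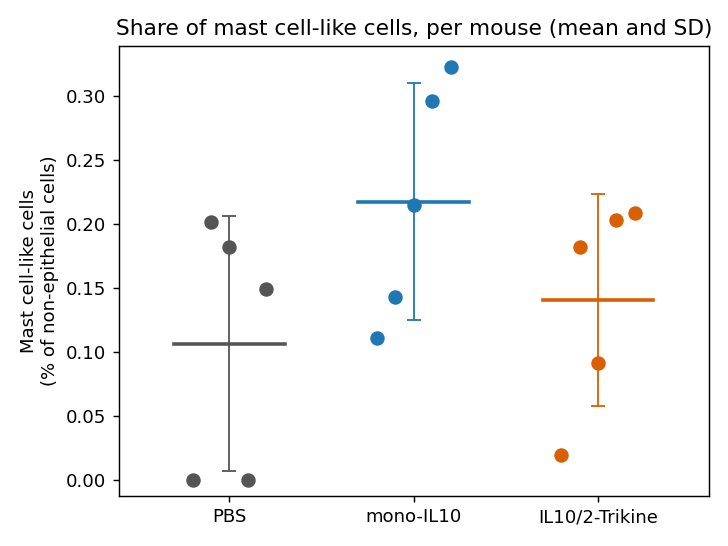
Mast cell-like cells as a percent of non-epithelial cells in each mouse (points), with the group mean (line) and SD (bar), 5 mice per group. The mono-IL10 mice sit between 0.111% and 0.323%, and the range of each other group overlaps theirs.

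Few genes passed the test between treatments. Counts were summed per mouse and tested with edgeR's quasi-likelihood test with Benjamini-Hochberg adjustment. With mice of at least 5 cells (2 PBS, 2 mono-IL10, 1 IL10/2-Trikine), 0 of 1069 genes passed in each comparison, a background of 0.0%. The single IL10/2-Trikine mouse was assumed to vary like the others in both comparisons that hold it, so these counts of 0 do not show that levels were alike. At an unadjusted p under 0.05 there were 82 genes (7.67%) for mono-IL10 minus PBS, 65 (6.08%) for IL10/2-Trikine minus PBS and 66 (6.17%) for IL10/2-Trikine minus mono-IL10. DESeq2 on the same sums called 8 genes for mono-IL10 minus PBS (0.748%; 3 higher, 0.281%, and 5 lower, 0.468%), 1 higher for IL10/2-Trikine minus PBS (0.0935%) and 1 lower for IL10/2-Trikine minus mono-IL10 (0.0935%). With mice of at least 3 cells (3, 5 and 3 mice; 440 genes), 2 genes passed for mono-IL10 minus PBS (0.455%), 1 for IL10/2-Trikine minus PBS (0.227%) and 2 for IL10/2-Trikine minus mono-IL10 (0.455%). DESeq2 with at least 3 cells (439 genes) called 4 (0.911%; 1 higher, 0.228%, and 3 lower, 0.683%), 2 (0.456%; 1 each way, 0.228%) and 12 (2.73%; 2 higher, 0.456%, and 10 lower, 2.28%) in the same order, and in the last of these 268 of the 439 genes received an adjusted p. Leaving out single mice moved these counts, to 46 for mono-IL10 minus PBS with at least 5 cells (without PBS mouse 2) and to 18 for IL10/2-Trikine minus mono-IL10 with at least 3 (without IL10/2-Trikine mouse 4). The comparisons share groups, so they are not independent of each other. Counts were also simulated with the means and depths of these mice but with 1 spread for all genes. There the fit with at least 5 cells recovered 62 of 87 genes changed 8-fold and 19 of 93 changed 4-fold between mono-IL10 and PBS. The fit with at least 3 cells recovered 87 of 88 and 88 of 89. They called 2 and 6 unchanged genes, respectively. Genes with a larger spread between mice are not covered by this simulation. In the real fit with at least 3 cells, Ccl1 differed between IL10/2-Trikine and PBS by -4.36 (SE 1.27) without passing.

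Mt1, a metallothionein that binds zinc and copper, was higher in both treated groups than in PBS where mice with at least 3 cells were tested. Mt1 stood at 341, 329 and 379 CPM in the 3 PBS mice, at 1546, 1520, 3072, 4311 and 2938 CPM in the 5 mono-IL10 mice and at 4084, 2330 and 4272 CPM in the 3 IL10/2-Trikine mice. Every treated mouse lay above every PBS mouse, as for 4.77% of the 440 genes with mono-IL10 and 10.0% with IL10/2-Trikine. In the fit with at least 3 cells the log2 difference was 2.86 (SE 0.423, edgeR adjusted p = 0.00288) for mono-IL10 and 3.24 (SE 0.456, adjusted p = 0.0034) for IL10/2-Trikine, both against PBS. The 2 treated groups differed by 0.38 (SE 0.341, adjusted p = 0.759), IL10/2-Trikine minus mono-IL10. With at least 5 cells the differences were 3.51 (adjusted p = 0.156) and 3.48 (adjusted p = 0.288) and did not pass. Of the alternatives to that fit with at least 5 cells, Mt1 passed in 7 of 12 for mono-IL10 and in 5 of 10 for IL10/2-Trikine. The IL10/2-Trikine group was 1 mouse in that fit, and leaving out a PBS or mono-IL10 mouse left 1 mouse in its group too, each assumed to vary like the others. Of 17 alternatives to the fit with at least 3 cells, all added after the data had been seen, it passed in 16 and 14. Among these 17 it was lost in both when other-cell genes excluded no barcode (1.44 and 1.57, adjusted p = 0.164 and 0.648). For IL10/2-Trikine it was also lost without PBS mouse 3 (3.28, adjusted p = 0.0504) and with mice called by the highest hashtag (3.35). Under that call PBS mice 2, 3 and 5 held 12, 1 and 1 selected cells, against 7, 5 and 4 otherwise. The PBS group of that fit was therefore mouse 2 alone, assumed to vary like the others. Cells outside the tested mice, most of them unassigned, had 979 CPM of Mt1 with PBS, 2506 with mono-IL10 and 1740 with IL10/2-Trikine, a smaller difference in the same direction.

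Macrophage-like cells moved with them. Their Mt1 ran from 1663 to 1816 CPM in the PBS mice, from 2585 to 3742 CPM in mono-IL10 and from 2882 to 3669 CPM in IL10/2-Trikine, again with no overlap against PBS. In the mice with both populations the log2 rise was 2.79 in mast cell-like and 0.91 in macrophage-like cells for mono-IL10, and 3.27 and 0.89 for IL10/2-Trikine. The difference between the 2 rises was 1.88 (exact permutation p = 0.0357, adjusted p = 0.214 over 12 tests) and 2.38 (exact permutation p = 0.1, the smallest possible with 3 mice against 3). The related Mt2 had 0, 0 and 54.1 CPM in the PBS mice, 0 to 386 CPM in mono-IL10 and 0 to 77.1 CPM in IL10/2-Trikine. Whether free RNA of other cells entered these Mt1 values was not tested.

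Cxcl2, a neutrophil chemokine, was lower in the mono-IL10 mice, but not in the cells outside them. Its level was 597, 1542 and 1786 CPM in the PBS mice, 39.6, 0, 0, 21.5 and 0 CPM in the mono-IL10 mice, and 1618, 0 and 383 CPM in the IL10/2-Trikine mice. Every mono-IL10 mouse lay below every PBS mouse, as for 2.27% of the 440 genes, while the IL10/2-Trikine mice overlapped both groups. The mono-IL10 values rest on 2 UMIs against 108 in PBS, a ratio of 122 for PBS over mono-IL10 with a 95% counting interval of 32.9 to 1018. The fitted difference passed for mono-IL10 minus PBS (-6.49, SE 0.918, edgeR adjusted p = 0.00288) and for IL10/2-Trikine minus mono-IL10 (5.47, SE 1.05, adjusted p = 0.0355), and with so few UMIs its size depends on the prior count. However, the mono-IL10 cells that did not enter the test held 95 of the 97 Cxcl2 UMIs of that library, 649 CPM, against 762 CPM in such PBS cells. With mice called by the highest hashtag the difference fell to -1.40, but the PBS group was then mouse 2 alone. With no exclusion by other-cell genes the difference fell to -0.40 (edgeR adjusted p = 0.893). For IL10/2-Trikine minus mono-IL10 the call was lost in 10 of 17 alternatives to the fit with at least 3 cells, 8 of them the removal of a single mouse: PBS mouse 3 (adjusted p = 0.0532), mono-IL10 mice 1, 2, 3, 4 and 5 (adjusted p = 0.0610, 0.0808, 0.0502, 0.0578 and 0.122) or IL10/2-Trikine mice 2 and 5 (adjusted p = 0.255 and 0.144). Macrophage-like cells carried 4335 to 9284 CPM of Cxcl2 in every mouse. Neutrophil markers in the selected cells summed to 256 to 2705 CPM in the PBS mice and 0 to 19.5 CPM in the mono-IL10 mice. Their part in the Cxcl2 difference was not tested.

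**Figure D4:**
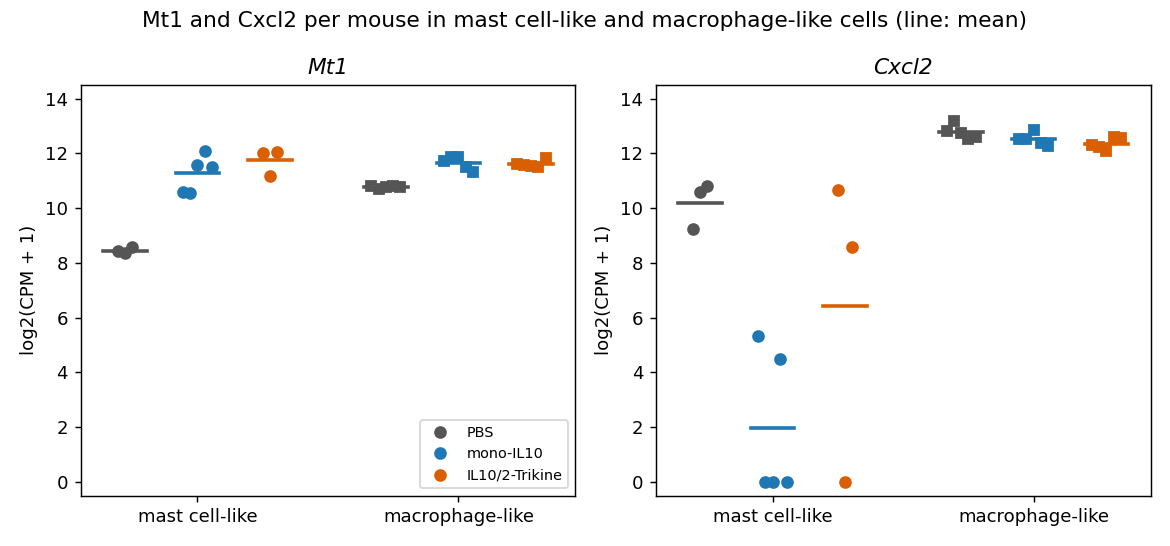
Mt1 (left) and Cxcl2 (right) per mouse as log2(CPM + 1) in mast cell-like cells (circles; 3, 5 and 3 mice) and macrophage-like cells (squares; 5 mice per group), with the mean of each group (line). Mt1 lies lowest in the PBS mice in both populations. Cxcl2 in mast cell-like cells is at 0 CPM in mono-IL10 mice 2, 3 and 5 and at 39.6 and 21.5 CPM in mice 1 and 4, below every PBS mouse. IL10/2-Trikine mouse 4 is at 0 CPM too, and no macrophage-like value lies near 0.

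Xist, the noncoding RNA of the inactive X chromosome, passed for IL10/2-Trikine minus mono-IL10. It stood at 1618, 776 and 3379 CPM in the IL10/2-Trikine mice and between 357 and 545 CPM in the mono-IL10 mice (2.11, SE 0.395, edgeR adjusted p = 0.0355). Macrophage-like cells went the same way, with 1057 to 1278 CPM in IL10/2-Trikine and 594 to 711 CPM in mono-IL10. The call was lost in 9 of 17 alternatives to the fit with at least 3 cells. Among them was the call of mice by the highest hashtag (0.89), a fit in which PBS mouse 2 was alone in its group. The others were without PBS mouse 3 (adjusted p = 0.0532), without mono-IL10 mice 1, 2, 3, 4 or 5 (adjusted p = 0.0665, 0.0808, 0.0502, 0.0578 and 0.110) and without IL10/2-Trikine mice 2 or 5 (adjusted p = 0.158 and 0.218). In the PBS mice macrophage-like cells had 800 to 868 CPM of Xist, so no mouse of any group was near 0 in these cells. The sex of each mouse was not given in the sources used here, and its part in the Xist difference was not tested.

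Mcpt2, Mcpt4, Cma1, Tpsb2 and Tpsab1 had their highest mean in the mono-IL10 mice and their lowest in the IL10/2-Trikine mice. DESeq2 called these differences between these groups with at least 3 cells but not with at least 5, and edgeR called none of them. Without the Cpa3-negative cell of PBS mouse 3 the Tpsb2 mean was highest in PBS (25274 against 22303 CPM with mono-IL10), and the other 4 kept this order. Gzmb had its lowest mean in PBS, and the Mcpt1 means of PBS and IL10/2-Trikine lay close together, at 15104 and 15554 CPM. Mcpt2 stood at 49855, 16987 and 48165 CPM in the PBS mice, at 65750, 86414, 65235, 69625 and 77972 CPM in the mono-IL10 mice and at 25042, 56240 and 27672 CPM in the IL10/2-Trikine mice. Every mono-IL10 mouse lay above every other mouse, as 4.77% of the 440 genes did against PBS. The Mcpt2 difference was 0.88 (SE 0.362, edgeR adjusted p = 0.353) for mono-IL10 minus PBS and -1.09 (SE 0.366, adjusted p = 0.222) for IL10/2-Trikine minus mono-IL10.

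Mcpt1 varied widely between mice of a group. It stood at 12954, 2755 and 29603 CPM in PBS, 31627, 24739, 48230, 55018 and 30971 CPM in mono-IL10 and 3082, 43261 and 319 CPM in IL10/2-Trikine. The difference was 1.29 (SE 0.987, adjusted p = 0.652) for mono-IL10 minus PBS and -1.44 (SE 1.002, adjusted p = 0.611) for IL10/2-Trikine minus mono-IL10. DESeq2 with at least 5 cells called Mcpt1 for both (2.65, adjusted p = 0.0313, and -3.96, adjusted p = 0.0113), whereas with at least 3 cells it did not (adjusted p = 0.792 and 0.666). The lone IL10/2-Trikine mouse of the first fit, mouse 2, had 3082 CPM and mouse 4, not in it, 43261 CPM.

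The connective tissue proteases Mcpt4 and Cma1 were lower in every IL10/2-Trikine mouse than in every mono-IL10 mouse, as for 5.68% of the 440 genes. Mcpt4 ran from 19338 to 31149 CPM in PBS, from 31604 to 38609 CPM in mono-IL10 and from 16639 to 20722 CPM in IL10/2-Trikine, and its difference between both cytokines was -0.92 (SE 0.234, adjusted p = 0.0905). Cma1 ran from 14333 to 15694, from 15485 to 23442 and from 8985 to 13262 CPM, with a difference of -0.85 (SE 0.231, adjusted p = 0.121). Tpsb2 ran from 17796 to 22946, from 16816 to 29473 and from 9096 to 15642 CPM. Tpsab1 differed by -1.46 (SE 0.367, adjusted p = 0.0905) and Srgn by -0.94 (SE 0.219, adjusted p = 0.0751), both IL10/2-Trikine minus mono-IL10 and both short of the threshold in edgeR.

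DESeq2 with at least 3 cells, a setting added after the data had been seen, called these genes lower with IL10/2-Trikine than with mono-IL10. Its 10 lower calls (2.28% of 439 genes) included a selection gene, Fcer1a, from which nothing is read here. Of the others, Mcpt4 differed by -0.90 (SE 0.205, adjusted p = 0.00106), Srgn by -0.92 (adjusted p = 0.0100), Cma1 by -0.82 (adjusted p = 0.0100) and Tpsab1 by -1.45 (adjusted p = 0.0114). Mcpt-ps1, Mcpt2, Tpsb2 and Fcer1g followed at -2.52, -1.07, -0.85 and -0.79 (DESeq2, adjusted p between 0.0305 and 0.0490), and Ccl1 is given with the cytokines. Leaving out the Cpa3-negative cell of PBS mouse 3, also added later, left the edgeR differences between the cytokines nearly as they were and moved those against PBS. For mono-IL10 minus PBS, Mcpt2 went from 0.88 to 0.77, Mcpt4 from 0.41 to 0.22, Cma1 from 0.31 to 0.08 and Tpsb2 from 0.03 to -0.18, and Cma1 of PBS mouse 3 then lay above every mono-IL10 mouse.

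**Figure D5:**
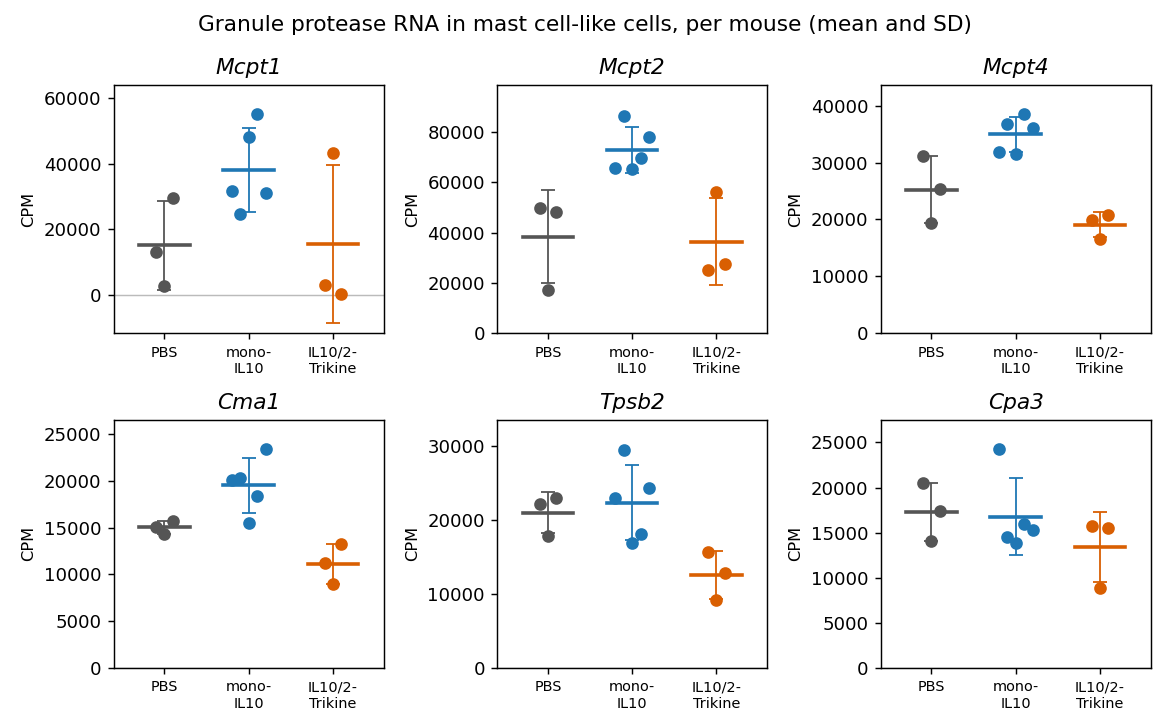
Level of 6 granule protease genes (CPM of UMIs summed per mouse) in the 3 PBS, 5 mono-IL10 and 3 IL10/2-Trikine mice with at least 3 mast cell-like cells, with the group mean (line) and SD (bar). Mcpt2 lies between 65235 and 86414 CPM in mono-IL10 and at most at 56240 CPM elsewhere, and Mcpt1 ranges from 319 to 43261 CPM within IL10/2-Trikine.

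In the gene lists, edgeR with at least 3 cells called no member other than Cxcl2. The lists are described without the selection genes. DESeq2 on the same mice called 5 of 7 tested granule proteases and 6 of 15 mast cell identity genes lower for IL10/2-Trikine minus mono-IL10. Of 4 genes of the IgE receptor pathway it called Fcer1g alone. In these 3 lists 7, 13 and 2 genes received an adjusted p. Over all 439 genes 10 were called lower (2.28%), and 268 received an adjusted p. Genes on more than 1 list were counted in each. For mono-IL10 minus PBS it called Il1b (-5.32, adjusted p = 0.0312) lower beside Cxcl2, and none of the proteases. Il1b had 2, 50 and 29 UMIs in the PBS mice and at most 3 in a mono-IL10 mouse. The neutrophil gene S100a8 had 2, 71 and 12 UMIs in the same PBS mice and 0 in each mono-IL10 mouse, and its relation to Il1b was not tested. The 7 tested granule proteases had a median log2 difference of 0.62 for mono-IL10 minus PBS, -0.52 for IL10/2-Trikine minus PBS and -1.09 for IL10/2-Trikine minus mono-IL10 (edgeR, at least 3 cells), against medians of 0.03, -0.05 and -0.001 over all 440 genes. The 15 tested mast cell identity genes had medians of 0.13, -0.57 and -0.82, and the 6 tested genes of mediator synthesis 0.16, -0.67 and -1.04. For 11 tested cytokine and chemokine genes the medians were -0.84, -1.02 and -0.54. For the IL-10 and STAT3 response only 3 of 14 genes were tested (medians 0.25, -0.06 and -0.01), and for the STAT5 response 2 of 15 (1.06, 0.12 and -0.94), so these programs were mostly below what the depth allowed. Their highest members were Ier3 (652 CPM), Junb (609 CPM), Pim1 (304 CPM) and Fosl2 (152 CPM), and for STAT5 Gzmb, Pim1 and Mcl1 (279 CPM).

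Gzmb, a cytotoxic granule protease, stood at 259, 1529 and 700 CPM by library. By mouse it ran from 0 to 607 CPM in PBS, from 34.6 to 2660 CPM in mono-IL10 and from 0 to 1331 CPM in IL10/2-Trikine. The difference for mono-IL10 minus PBS was 2.17 (SE 1.04, edgeR adjusted p = 0.435). Without single mice it ran from 1.80 to 3.94, highest without PBS mouse 3. Without the Cpa3-negative cell of that mouse it was 4.16 (edgeR adjusted p = 0.152). That cell carried Gzmb, and without it the mean of the PBS mice was 71.4 instead of 259 CPM. Cma2 had 0, 25.3 and 216 CPM in PBS and 79.3, 0, 380, 4569 and 506 CPM in mono-IL10, and 0 in the IL10/2-Trikine mice, so most of it came from mono-IL10 mouse 4. Of 15 type I interferon genes 6 had 0 UMIs, and Isg15 (504 CPM) and Bst2 (160 CPM) led the rest. This list summed to 957, 621 and 533 CPM by library, against 927, 651 and 726 CPM in macrophage-like cells. The interferon-gamma list summed to 265, 648 and 637 CPM, against 4129, 3160 and 2666 CPM. Mki67 had a UMI in 24.8% and Top2a in 23.9% of cells, against 13.5% and 12.5% of macrophage-like and 18.9% and 26.1% of NK-like cells. The 20 cell cycle genes summed to 2030, 2301 and 2873 CPM by library, against 2041, 1382 and 1763 CPM in macrophage-like cells, and cycling was not called from these values.

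The genes with the smallest unadjusted p in the fit with at least 5 cells are given as values, and none passed. The IL10/2-Trikine group was then a single mouse, mouse 2, and genes with few or 0 UMIs in a group are given by their mean CPM, because the fitted size depends on the prior count. Higher in IL10/2-Trikine than in PBS after Mt1 were Cst3 (1.84 on the log2 scale), H2-Aa (1233 against 12.6 CPM), Ccl8 (1079 against 89.2 CPM) and Cd74 (2312 against 63.2 CPM). Lower were Tax1bp1 (-2.08), Vim (-1.85), Furin (77.1 against 1255 CPM), Ccl1 (77.1 against 5115 CPM) and H2-T23 (0 against 386 CPM), with adjusted p = 0.720 for each of these 9 genes (edgeR). With 3 IL10/2-Trikine mice the differences were smaller, at 0.99 for Cst3, -1.03 for Tax1bp1, -1.16 for Vim and -1.23 for Furin.

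For mono-IL10 minus PBS, Ifitm2 (1.78), Def8 (2.68) and Gzmb (2.45) were higher, as was Cma2 (2537 against 12.6 CPM). Camk1d (-2.55), Gm20186 (-2.20), Il31ra (-2.92), Nfkbia (-2.07) and Cxcl2 (10.7 against 1069 CPM) were lower, with adjusted p = 0.593 for each (edgeR). With at least 3 cells Gm20186 was at -1.33 and Nfkbia at -1.38. For IL10/2-Trikine minus mono-IL10, Nfkbia (3.11) was higher, and so were Cd74 (2312 against 0 CPM), Ccl8 (1079 against 39.9 CPM), H2-Aa (1233 against 0 CPM) and Cxcl2 (1618 against 10.7 CPM). Tpsab1 (-2.43), Tax1bp1 (-2.04), Ifitm2 (-2.03), Furin (77.1 against 1165 CPM) and Gzmb (0 against 2157 CPM) were lower, with adjusted p between 0.563 and 0.692 (edgeR). With 3 IL10/2-Trikine mice Nfkbia was at 0.94, Tpsab1 at -1.46, Tax1bp1 at -0.80, Furin at -1.20 and Gzmb at -1.88, none of which passed.

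RNA of other cells was unevenly spread over the groups. The 12 tumor epithelial markers summed to 341 to 2073 CPM in the PBS mice, 642 to 3003 CPM in mono-IL10 and 333 to 25950 CPM in IL10/2-Trikine, where S100a6 alone reached 23782 CPM in mouse 5. By library, S100a6 stood at 1251, 1263 and 8315 CPM, Clu at 11.5, 78.7 and 627 CPM and Krt8, which the rule limited, at 5.77, 18.2 and 167 CPM. The 12 macrophage markers summed to 469 to 1191, 77.8 to 343 and 333 to 5866 CPM per mouse, with Spp1 at 334, 194 and 3802 CPM by library. The macrophage receptor gene Csf1r was at 1, 0 and 0 UMIs. The 8 neutrophil markers, led by S100a8, summed to 796, 57.5 and 73.1 CPM by library. Per mouse they summed to 256 to 2705, 0 to 19.5 and 0 to 539 CPM. NK markers summed to 0, 0 and 167 CPM and the 6 UMIs of Il2rb were in the same library. Collagen and other fibroblast markers summed to 10846, 3.03 and 1838 CPM by library. Among the mice with at least 3 cells, Col1a1, Col1a2 and Col3a1 had UMIs in PBS mouse 3 only (576, 606 and 449). Sparc had 196 UMIs in that mouse and at most 2 in any other. In DESeq2 with at least 5 cells, 4 of the 8 genes called for mono-IL10 minus PBS were Col1a1, Col1a2, Col3a1 and Sparc. The part of these RNAs in the differences between treatments was not tested.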

How the data were processed

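The data were gene and hashtag UMI counts of 3 single-cell libraries, 1 per treatment, with 5 hashtags each. According to the study's methods, the authors made these counts with Cell Ranger (mouse build GRCm39), and the deposited matrices hold raw counts per barcode for 34187 genes. The submitters' processing notes name Seurat 5.1.0 and DESeq2 1.46.0. The selected cells and the gene lists were chosen with earlier results of these data known.

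Mice were assigned from the hashtag counts with Seurat 5.3.0 (HTODemux, quantile 0.99). No doublet caller was run, and the 5 cells with more than 1 hashtag stayed in descriptions of cells and out of tests by mouse. Macrophage-like cells had at least 10 C1q UMIs and, like NK-like cells, at most 1 UMI of the 4 selection genes. A mouse entered the gene tests with at least 5 selected cells, or 3 in an alternative. Counts were summed per mouse and tested with edgeR 4.0.16 (quasi-likelihood, TMM) over all genes that passed its filter on low counts, with Benjamini-Hochberg adjustment at 0.05. DESeq2 1.42.0 was an alternative. These ran in R 4.3.3. Shares were compared by exact permutation over mice, and receptor genes by exact sign-flip permutation on log2(CPM + 1) or CPM. The genes used in the selection were left out of the list counts. Genes named for treatments were the 5 with the smallest p in each direction, the genes that passed, and the members of the lists. In simulated counts with 1 spread for all genes, the test with at least 5 cells per mouse recovered part of the known changes. That with at least 3 cells recovered nearly all, by the counts given above. Gene names came from the files. Promoters came from RefSeq and gene positions from GENCODE.

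Mice of a group were separate animals sharing a library, so p-values measure the spread between mice within libraries. A UMI is counted once per captured molecule, but intervals cover counting error only.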

Additional observations from a re-analysis of the deposited data

Results flagged for a closer look

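Of 33 sets of 5 mice examined, most of them levels in mono-IL10, 6 had 1 mouse far from the others, and all 6 were mono-IL10 levels. The usual rate of about 1 in 20 holds for normally distributed values and not for levels resting on few UMIs. No excess is therefore read from this count. Cpa3, used in the selection, stood at 24255 CPM in mouse 1, with the next mouse at 15980 CPM. Gm20186 also peaked in mouse 1, at 1268.2 CPM against 257.39 CPM in the next mouse. In mouse 2, Ccl1 reached 6841.3 CPM against 1653.6 CPM in the next mouse, and Cd74 was found only there, at 34.552 CPM, which was 1 UMI. Tax1bp1 was lowest in mouse 3, at 1013.4 CPM against 1762.1 CPM. Cma2 reached 4568.8 CPM in mouse 4 against 505.81 CPM. These mice had 3 to 7 cells each, and the cause of these gaps was not tested.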

How the results depend on the processing

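The difference in share between IL10/2-Trikine and PBS turned to -0.0152 percentage points with all filtered barcodes as the denominator, and with that denominator IL10/2-Trikine minus mono-IL10 (-0.0867) passed. After thinning, mono-IL10 minus PBS (0.153) and IL10/2-Trikine minus mono-IL10 (-0.136) passed, and with cells of at least 3000 UMIs and no thinning, chosen after seeing the data, they did not (0.140 and -0.105). Leaving out each mouse in turn gave 0.0076 to 0.0647 for IL10/2-Trikine minus PBS, 0.0842 to 0.138 for mono-IL10 minus PBS and -0.103 to -0.0461 for IL10/2-Trikine minus mono-IL10, without a call.

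The share of Mcpt8+ cells per mouse was 7.14 percentage points higher with mono-IL10 than with PBS (exact permutation p = 1). That rested on 1 of 7 cells in mono-IL10 mouse 5, and with 2 mice against 2 this test could not pass. IL10/2-Trikine, which had 1 mouse, could not be tested at all. The difference in this share for IL10/2-Trikine minus PBS was -10 points when 1 Mcpt8 UMI sufficed. At 10 UMIs it was 0 for mono-IL10 minus PBS and 0 for IL10/2-Trikine minus mono-IL10. At the main limit of 2 Mcpt8 UMIs, both differences without single mice ran from 0 to 14.3 and from -14.3 to 0, in the same order.

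In mice with at least 3 cells, 12 receptor genes passed against macrophage-like and 12 against NK-like cells, or 11 and 10 on CPM not logged, each adjusted over the 26 tests. Adjusted over all genes, also chosen after seeing the data, it was 12 and 12, or 10 and 10 on CPM not logged, and Il10ra against NK-like cells turned to -1.74 on the log2 scale.

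The number of genes tested differed between settings, so the counts below are not shares of 1 set. It was 1069 with at least 5 cells, 9793 without a filter on low counts and 580, 661 and 879 with only the 2 groups compared. With at least 3 cells it was 440, with Mcpt8-negative cells 523 and with no exclusion by other-cell genes 892. The number of genes called moved most. In the order IL10/2-Trikine minus PBS, mono-IL10 minus PBS and IL10/2-Trikine minus mono-IL10, it was 0, 0 and 0 with at least 5 cells per mouse, 1, 8 and 1 with DESeq2, 29, 81 and 21 without a filter on low counts, 2, 1 and 38 with only the 2 groups compared, and 0, 4 and 1 with mice called by the highest hashtag. With cells free of C1q and keratin UMIs it was 5 for mono-IL10 minus PBS, and no IL10/2-Trikine mouse had enough such cells. With at least 3 cells it was 1, 2 and 2. Chosen after seeing the data, in the same order and with at least 3 cells, were DESeq2 (2, 4 and 12), DESeq2 size factors (1, 2 and 2), Cpa3+ cells (1, 2 and 2), Mcpt8-negative cells (5, 3 and 20), the highest hashtag (0, 6 and 0) and no exclusion by other-cell genes (0, 0 and 51). Without single mice, in both sets of mice together, it ran from 0 to 25, 0 to 46 and 0 to 20, and where an arm then held 1 mouse that mouse was assumed to vary like the others. With at least 5 cells it was 25, 45 and 20 without mono-IL10 mouse 4, 25, 41 and 9 without mono-IL10 mouse 5, 3, 46 and 0 without PBS mouse 2 and 0, 0 and 0 without PBS mouse 3. With at least 3 cells it was 5, 2 and 18 without IL10/2-Trikine mouse 4, 1, 7 and 3 without PBS mouse 2, 2, 5 and 3 without PBS mouse 5 and 0, 2 and 0 without PBS mouse 3. With mice called by the highest hashtag, PBS mouse 2 was alone in its group in both sets of mice. With at least 5 cells IL10/2-Trikine mouse 2 was then alone in its group as well. Such a mouse was assumed to vary like the others. The causes of these moves were not tested.

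Without exclusion by other-cell genes, also chosen later, Cst3 turned to -0.87 for IL10/2-Trikine minus PBS, and Cxcl2 to -0.38 and Nfkbia to -0.11 for IL10/2-Trikine minus mono-IL10. With at least 3 cells and mice called by the highest hashtag, Ccl1 turned to 0.33 for IL10/2-Trikine minus mono-IL10. Without single mice Cst3 ran from -0.0498 to 2.18 and Nfkbia from -0.392 to 3.27, both lowest without IL10/2-Trikine mouse 2. Tests with at least 10 cells per mouse were not run because no mouse had as many. No paired analysis was possible because the hashtag numbers name mice within a library and pair none across treatments.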
